A study of Mus musculus with 12 samples.

Results

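Molecular chaperones bind unfolded or partly folded proteins and keep them from aggregating until they reach their native shape. The 42 genes described here encode the chaperones and cochaperones that work outside the endoplasmic reticulum, in the cytosol, the nucleus and the mitochondrial matrix. They were chosen by gene symbol from a list of heat shock proteins, CCT/TRiC, prefoldin and their partners, and all 42 were found among the 32288 rows of the deposited count table. The rule uses no measured value, but the list was drawn up with earlier results of these data known.

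Their transcripts were counted by bulk RNA-seq of mGFP+ cells sorted from the metaphysis, the zone of growing bone next to the growth plate, of mouse femurs and tibias. All mice carried *Osx-CreERT2*, a tamoxifen-activated Cre recombinase driven by the *Osx* (*Sp7*) gene of immature osteoblasts, and *mTmG*, a reporter that switches from membrane tdTomato to membrane GFP after recombination. The juvenile group (4 libraries, 3 weeks of age) and the adult group (4 libraries, 8 weeks of age) carried no other engineered allele, and each of their libraries pooled the bones of 2 male mice, taken 2 days after a course of tamoxifen on 3 days. The *c-Myc* group (2 libraries) also carried *LSL-tTA* at the *Rosa26* locus and *Col1a1::TetO-c-Myc*, so that recombined cells express *c-Myc* once doxycycline or tetracycline is withdrawn. The *c-Myc* + *R172H* group (2 libraries) carried in addition *Trp53-LSL-R172H*, a dominant-negative mutation of *Trp53*. Cells of both induced groups were taken 7 days after tamoxifen, which had been given on 2 days. The sorting protocol names male and female mice for these groups, whereas other statements of the study name males alone for RNA-seq. The titles of these libraries name an age of 3 weeks and the protocol an age of 5 weeks at dissection, and the diaphysis was trimmed at 5 mm in place of 2 mm. Per the methods, inducible mice or pregnant females were given doxycycline or tetracycline in drinking water until a set time before analysis. This treatment is not named for the reporter mice. *c-Myc* induction therefore cannot be told apart from these differences between the induced groups and the juvenile group. Nothing in the labels says that the libraries of a group came from separate litters, so p-values measure the spread between these samples.

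Chaperones work in relays. HSP70 proteins take hold of short hydrophobic stretches with the help of J-domain proteins, which deliver the client and trigger ATP hydrolysis, and of nucleotide exchange factors such as the HSP110 and BAG proteins. Some clients then pass to HSP90, whose cycle is set by cochaperones, or to the barrel-shaped CCT/TRiC complex, which folds actin and tubulin that prefoldin brings to it. In the mitochondrial matrix, HSP60 (*Hspd1*) and its lid HSP10 (*Hspe1*) form a folding chamber, and mtHSP70 (*Hspa9*) pulls proteins in and starts their folding. A subset of these genes is induced by heat shock through heat shock factor 1 (*Hsf1*), which binds heat shock elements, repeats of GAA in alternating orientation. MYC binds E-boxes with the core CACGTG.

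Some members lie close together or resemble other genes, which matters for reading their counts. *Hspd1* (chromosome 1, 55077835 to 55088243, minus strand of GRCm38) and *Hspe1* (chromosome 1, 55088132 to 55091307, plus strand) overlap at their 5′ ends by 112 bases. *Hspa1a* (chromosome 17, 34969190 to 34972156, minus strand) and *Hspa1b* (chromosome 17, 34956436 to 34959238, minus strand), the stress-inducible HSP70 genes, start 12918 bases apart on the same strand. Their RefSeq promoters had 296 of 300 bases in common, and of the 86-base windows (the read length) of the *Hspa1a* transcript 51.8% also occurred in another gene and 50.2% in *Hspa1b*. Since only uniquely mapped reads were counted, the levels of *Hspa1a* and *Hspa1b* are uncertain. Their sum is given as well, but it too lacks the reads that match both genes. Windows shared with other genes also covered over 20% of the transcripts of *Hspa8* (65.5%), *Hsp90aa1* (50.9%), *Hspb1* (45.3%), *Hspd1* (30.4%), *Hspe1* (22.1%) and *Ptges3* (20.8%), and 28 members shared no window. The exons of 14 members overlapped a gene on the opposite strand, by the largest shares in *Pfdn2* (27.6% of its exon length, with *Klhdc9*), *Pfdn4* (25.4%, with *Gm16796*) and *Hspa1a* (19.0%, with *Gm20481*), and the strand setting of the counting is not given in the sources used here.

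Of the 42 members, 34 had a promoter in the RefSeq table of GRCm38.p6, which spans 250 bases before to 50 bases after each start. The core CACGTG (a palindrome) was found in the promoters of 3 of these 34 members, *Hspd1*, *Hsph1* and *Fkbp5*, and in 7.15% of all 32851 promoters of the table. The heat shock element GAANNTTCNNGAA, searched on both strands, was found in 3 of 34 members, *Hspd1*, *Hspe1* and *Hsph1*, and in 0.603% of all promoters. The matches of *Hspd1* and *Hspe1* are the same bases (chromosome 1, 55088059 to 55088076) read from either side of this divergent pair, and the match of *Hsph1* lies after its start. The shorter GAANNTTC, a palindrome that overlaps the longer pattern, was found in 11 of 34 members against 7.86% of all promoters. These were *Hspd1*, *Hspe1*, *Hspa1a*, *Hspa1b*, *Hsph1*, *Fkbp4*, *Dnaja1*, *Cct2*, *Bag3*, *Hspb1* and *Hspb8*, so members that rose and members that fell both held it. *Dnajb1*, which fell, did not. CCAAT was searched as well and was found in 17 of 34 members and 37.4% of all promoters. For each pattern a member was counted if any of its promoters matched, while the share over all promoters takes each promoter singly. Members with several promoters thus had more chances to match. The windows below were chosen with the results known, and other members with a match are not shown. *Hspd1* and *Hspe1* changed most in the results, and *Hspa1a* and *Hspa1b* had negative changes. *Hsph1* held both an E-box and a heat shock element, as did *Hspd1* in the promoters of different starts. Capitals mark the matched pattern, and each sequence reads 5′ to 3′ on the strand of its gene.
*Hspd1*, E-box 80 bases before the start at 55088243, chr1:55088306-55088335: ggccggctgggaCACGTGaaaaggccgcgc
*Hspe1*, heat shock element 84 bases before the start at 55088148, chr1:55088056-55088085: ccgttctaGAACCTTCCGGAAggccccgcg
*Hsph1*, E-box 19 bases before the start at 149636315, chr5:149636317-149636346: aagcggaagtggCACGTGgaggcgccggtg
*Hspa1a*, short heat shock element 104 bases before the start at 34972156, chr17:34972242-34972271: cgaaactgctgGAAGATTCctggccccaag
*Hspa1b*, short heat shock element 104 bases before the start at 34959238, chr17:34959324-34959353: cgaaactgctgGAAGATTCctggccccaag

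The E-box shown for *Hspd1* lies in an exon of *Hspe1*, and the heat shock element shown for *Hspe1* lies in an exon of *Hspd1* in the GENCODE annotation, both outside the 112 bases where the exons of the pair overlap. The *Hspa1a* and *Hspa1b* windows have the same 30 bases. Positions depend on the start chosen. *Hsph1* has another RefSeq start at 149636336, and the same E-box begins 2 bases after it. The heat shock element of *Hspd1* lies before its RefSeq start at 55087932 but after that at 55088243. A match describes these letters only and is no evidence that a factor was bound.

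The libraries held between 9066154 and 15684412 counts. Levels are given as CPM, counts per 1000000 counts of a library after TMM scaling over the 12 libraries, and 3 counts, taken as the lowest level that is read as detected, corresponded to between 0.137 and 0.417 CPM. *Col1a1* alone took 33.4% to 39.1% of all counts in the juvenile libraries and 5.61% to 11.2% in the induced ones, while *Gm26917* took 7.19% to 8.46% in the juvenile, 4.70% to 10.5% in the adult and 26.5% to 29.4% in the induced libraries, so the scaling matters for every comparison between them. *Myc*, the induced gene, was at 39.8 to 52.2 CPM in the juvenile libraries, 624 and 658 CPM in the *c-Myc* libraries and 639 and 748 CPM in the *c-Myc* + *R172H* libraries. No library had a count of 0 for any of 10 osteoblast markers, whose summed level was 571700 to 840500 CPM in the juvenile, 343300 to 619000 in the adult, 99960 and 132400 in the *c-Myc* and 56460 and 58410 in the *c-Myc* + *R172H* libraries. Markers of endothelium and blood cells, which the sort removes, summed to at most 1.49 and 3.41 CPM in any library. In bulk samples a change in the share of a cell type cannot be told apart from a change in RNA per cell.

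The first comparison asks how the chaperone genes differ between *c-Myc*-induced and juvenile *Osx*+ osteoblasts. With edgeR's quasi-likelihood F test at a Benjamini-Hochberg adjusted p below 0.05, 32 of the 41 members tested were higher and 4 were lower in the *c-Myc* libraries. Of all 12588 genes tested, 28.4% were called higher and 25.0% lower. By at least 2-fold, 27 members were higher and 3 lower, against 18.4% and 16.0% of all genes. The median log2 fold change (log2FC) of the members was 1.53, compared with 0.04 for all genes tested. *Hspb8* did not pass the filter on low counts. The summed level of the 42 genes was 2175 ± 107 CPM (SD, n = 4) in the juvenile libraries and 6770 ± 252 CPM (SD, n = 2) in the *c-Myc* libraries, and the groups did not overlap. When only library totals were used for scaling, the all-gene median moved to 0.87, 6803 genes were called higher and 1115 lower in place of 3577 and 3149, and 37 members were called higher and 1 lower. Relative to the median of all genes, the median of the members was 1.49 with library totals and 1.496 with TMM. A change of scaling shifts all genes by nearly the same amount, so this difference had to stay close and tests nothing.

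**Figure D1:**
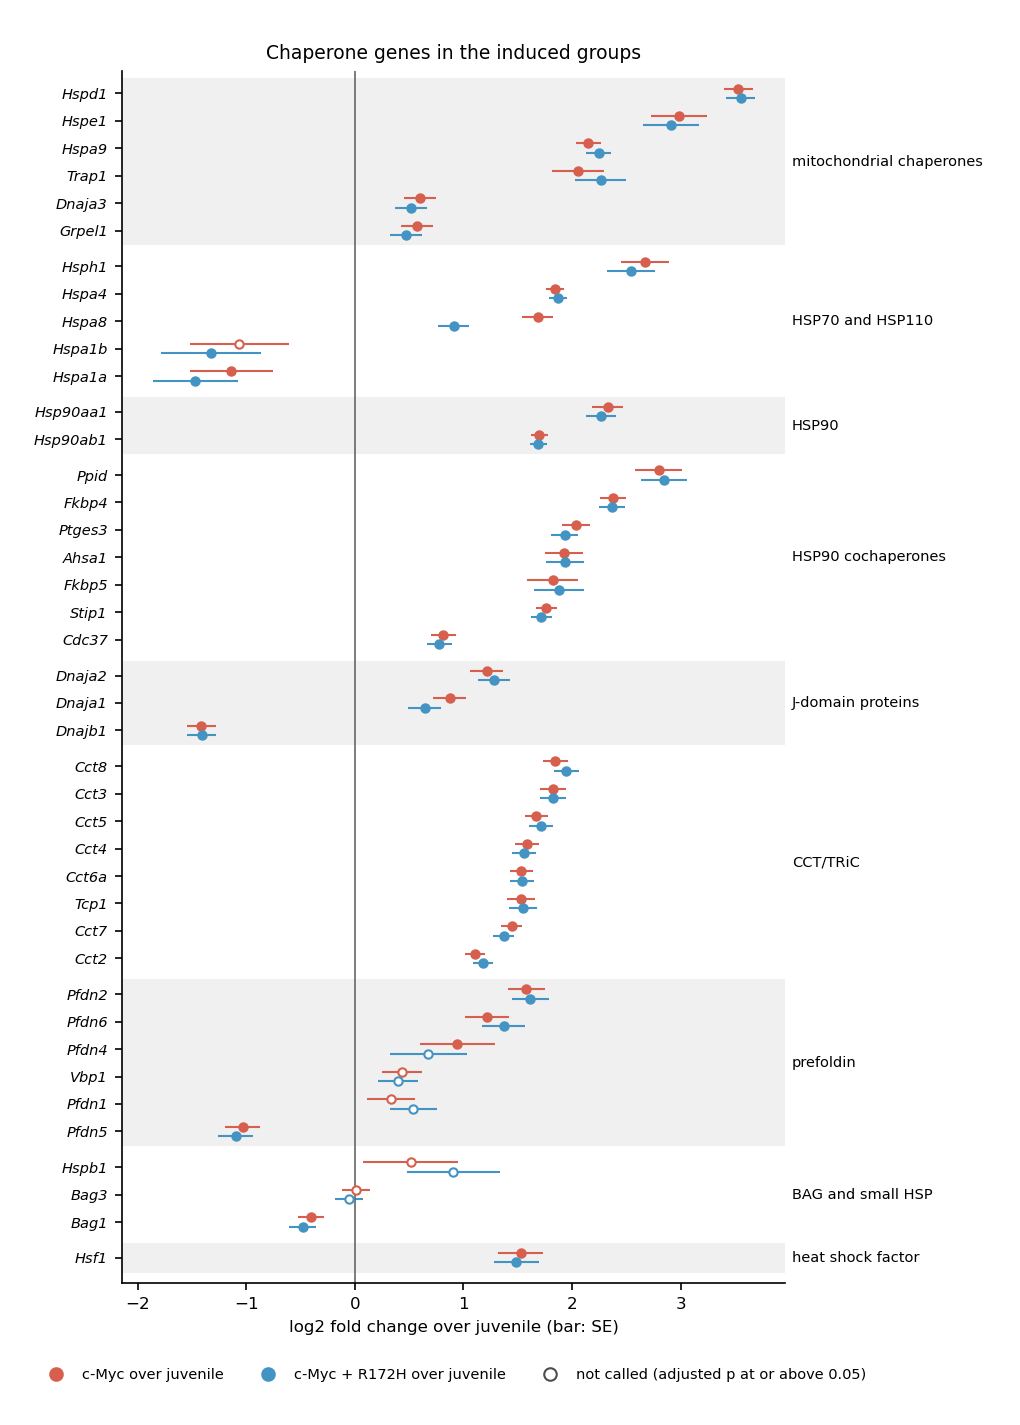
Log2 fold change over the juvenile libraries of the 41 members tested, grouped by role (points: estimate; bars: SE; filled: called at an adjusted p below 0.05; open: not called), for the *c-Myc* (red) and the *c-Myc* + *R172H* (blue) libraries, which share the juvenile controls. Most members lie between 0.5 and 3.6 in both groups, while *Hspa1a*, *Hspa1b*, *Dnajb1*, *Pfdn5* and *Bag1* lie below 0 in both (*Bag1* above 0 with library totals).

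All 6 mitochondrial chaperone genes rose. *Hspd1*, which encodes HSP60, was at 44.9, 42.8, 39.2 and 29.1 CPM in the juvenile libraries and at 456 and 464 CPM in the *c-Myc* libraries. Its log2FC was 3.53 (SE 0.13, adjusted p = 6.34e-09), an 11.6-fold difference that was the largest of all members. *Hspe1*, which encodes the HSP10 lid of the same chamber, rose from 6.49, 2.48, 5.29 and 3.603 CPM to 37.9 and 34.6 CPM, a log2FC of 2.99 (SE 0.26, adjusted p = 1.13e-06). The lowest *c-Myc* library lay far above the highest juvenile library for both genes. *Hspa9*, the import motor and matrix HSP70, rose 4.44-fold, from 96.3 ± 14 CPM (SD, n = 4) to 434 ± 10.8 CPM (SD, n = 2). *Trap1*, the mitochondrial HSP90, rose 4.15-fold, from 20.2 ± 7.7 CPM to 86.4 ± 2.42 CPM.

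The partners of matrix HSP70 changed less. *Grpel1*, its nucleotide exchange factor, was at 20.1, 16.5, 18.9 and 20.5 CPM in the juvenile and at 30.7 and 26.7 CPM in the *c-Myc* libraries, with a log2FC of 0.57 (SE 0.15, adjusted p = 0.00575). *Dnaja3*, its J-domain partner, had a log2FC of 0.60 (SE 0.15, adjusted p = 0.00403). Both calls were lost without *c-Myc* replicate 1, with adjusted p = 0.11 for *Grpel1* and 0.0521 for *Dnaja3*, while the other 4 mitochondrial genes were called in every alternative.

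**Figure D2:**
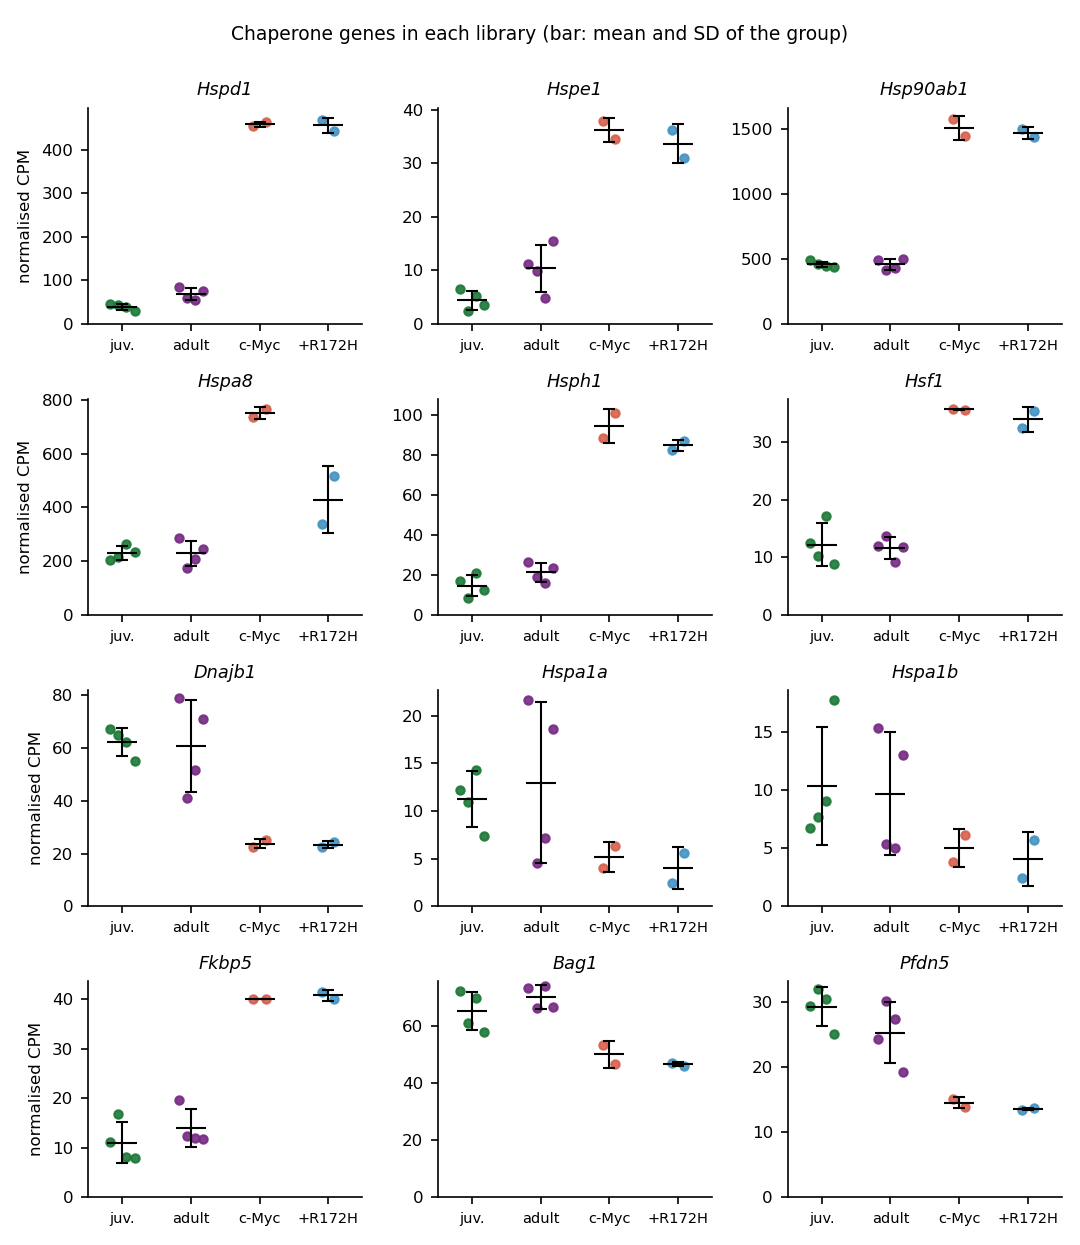
Normalised CPM of 12 members in each of the 12 libraries (points) with the mean and SD of each group (black), on linear axes that start at 0. The induced libraries stand above both control groups for *Hspd1*, *Hspe1*, *Hsp90ab1*, *Hspa8*, *Hsph1*, *Hsf1* and *Fkbp5*. They stand below the juvenile libraries for *Dnajb1*, *Hspa1a*, *Hspa1b*, *Pfdn5* and *Bag1* (*Bag1* above them with library totals). *Hspa1b* was not called between the *c-Myc* and juvenile libraries.

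Of the 5 cytosolic HSP70 and HSP110 genes, 3 were called higher and 1 lower. The constitutive HSP70 *Hspa8* was at 203, 218, 264 and 235 CPM in the juvenile libraries and at 734 and 766 CPM in the *c-Myc* libraries, a log2FC of 1.69 (SE 0.14, adjusted p = 9e-07). *Hsph1*, an HSP110 that releases ADP from HSP70, rose from 16.8, 8.77, 20.9 and 12.4 CPM to 88.7 and 101 CPM, a log2FC of 2.67 (SE 0.22, adjusted p = 7.72e-07). *Hspa4*, another HSP110, rose 3.58-fold. In each of these 3 genes the groups did not overlap.

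Of the stress-inducible HSP70 genes, 1 was called lower. *Hspa1a* was at 12.2, 10.9, 14.3 and 7.33 CPM in the juvenile libraries and at 4.07 and 6.30 CPM in the *c-Myc* libraries, and its log2FC was -1.14 (SE 0.38, adjusted p = 0.0244). *Hspa1b* was at 6.76, 7.64, 9.04 and 17.8 CPM in the juvenile libraries and at 3.84 and 6.13 CPM in the *c-Myc* libraries, and with a log2FC of -1.06 (SE 0.46, adjusted p = 0.0657) it was not called. Added together, the pair summed to 18.6 to 25.1 CPM in the juvenile libraries and to 7.90 and 12.4 CPM in the *c-Myc* libraries, so the sums of the groups did not overlap. The call of *Hspa1a* was lost without *c-Myc* replicate 1 (adjusted p = 0.216) or without juvenile replicate 1 (adjusted p = 0.0524), and *Hspa1b* was called by DESeq2 (adjusted p = 0.0457). Over 18 alternatives the adjusted p ranged from 0.00232 to 0.486 for *Hspa1a* and from 0.00816 to 0.676 for *Hspa1b*, and both stayed negative in all of them.

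The J-domain genes split as well. *Dnajb1*, the HSP40 that pairs with stress-induced HSP70, was at 67.1, 64.9, 62.5 and 54.9 CPM in the juvenile libraries and at 22.5 and 25.1 CPM in the *c-Myc* libraries. It had the lowest log2FC of all members, -1.41 (SE 0.13, adjusted p = 2.47e-06), and was called lower in all 18 alternatives. By contrast, *Dnaja2*, a constitutive partner of HSP70, rose from 28.3, 19.0, 25.2 and 26.7 CPM to 63.4 and 53.5 CPM, and *Dnaja1*, its paralog, rose 1.83-fold. *Hsf1*, the transcription factor that drives the heat shock response, was itself higher, at 12.6, 10.3, 17.3 and 8.82 CPM in the juvenile and at 35.7 CPM in both *c-Myc* libraries (log2FC 1.53, SE 0.21, adjusted p = 4.84e-05).

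Immediate early and stress genes that cell dissociation induces also differed, by an amount that depended on the scaling. Of a list of 12 such genes, 9 were called lower and 0 higher, against 3 lower and 5 higher with library totals, and their summed level was 3543 to 5041 CPM in the juvenile and 2518 and 2692 CPM in the *c-Myc* libraries. *Dusp1*, a phosphatase gene of this list, had a log2FC of -2.35 (SE 0.14, adjusted p = 7.29e-08), and *Fos* of -1.08 (SE 0.13, adjusted p = 1.85e-05, or 0.11 with library totals). The part of these genes in the level of *Dnajb1*, *Hspa1a* and *Hspa1b* was not tested.

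Both cytosolic HSP90 genes rose. *Hsp90ab1*, the constitutive form, was at 491, 460, 445 and 440 CPM in the juvenile libraries. In the *c-Myc* libraries it was at 1579 and 1446 CPM (log2FC 1.70, SE 0.08, adjusted p = 1.47e-08). Its counted level per kb of merged exons was the highest of all members in every group. This rank covers uniquely mapped reads only. Windows shared with other genes made up 65.5% of the *Hspa8* transcript and 0.0% of the *Hsp90ab1* transcript. The order of *Hsp90ab1* and *Hspa8* with all reads was not tested. *Hsp90aa1*, the form that stress can induce, rose from 27.9, 20.3, 32.7 and 25.2 CPM to 131 and 138 CPM (log2FC 2.33, SE 0.14, adjusted p = 6.69e-08).

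The 7 HSP90 cochaperone genes were all called higher. *Ppid*, an immunophilin that binds HSP90 in steroid receptor complexes, rose most, from 11.7, 9.49, 6.95 and 5.22 CPM to 63.3 and 56.9 CPM (log2FC 2.80, SE 0.22, adjusted p = 4.43e-07). *Fkbp4*, whose product favours steroid receptor activity, and *Fkbp5*, whose product restrains it, rose 5.21-fold and 3.53-fold, the former from 46.1 ± 7.63 CPM (SD, n = 4) to 243 ± 0.522 CPM (SD, n = 2). *Fkbp5*, which is also a glucocorticoid target gene, was at 11.1, 16.8, 8.21 and 7.95 CPM in the juvenile libraries and at 40.1 and 40.0 CPM in the *c-Myc* libraries (log2FC 1.82, SE 0.23, adjusted p = 2.87e-05). *Ptges3* (p23), which stabilises the closed form of HSP90, rose 4.10-fold, *Ahsa1*, which speeds up its ATPase, rose 3.80-fold, and *Stip1* (HOP), which links HSP70 to HSP90, rose 3.39-fold. *Cdc37*, which brings kinases to HSP90, changed least, from 75.9, 84.4, 86.5 and 64.4 CPM to 140 and 138 CPM (log2FC 0.81, SE 0.11, adjusted p = 6.3e-05).

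All 8 CCT/TRiC subunit genes rose, and they did so within a narrow band of log2FC values from 1.11 to 1.84. *Cct8* rose most, from 57.2, 63.0, 46.9 and 64.9 CPM to 220 and 203 CPM (SE 0.12, adjusted p = 9.24e-08). The level of *Tcp1* (CCT alpha) was 90.8 ± 15 CPM (SD, n = 4) in the juvenile and 267 ± 25.2 CPM (SD, n = 2) in the *c-Myc* libraries, and that of *Cct3* (CCT gamma) was 67.5 ± 9.62 CPM and 244 ± 20.3 CPM. *Cct2* rose least, from 153, 136, 136 and 130 CPM to 315 and 291 CPM (SE 0.09, adjusted p = 6.41e-07). The summed level of the 8 genes was 618 ± 45.4 CPM (SD, n = 4) in the juvenile and 1816 ± 158 CPM (SD, n = 2) in the *c-Myc* libraries. Each ring of CCT/TRiC holds a single copy of every subunit, but the levels per length were not equal, and their order depended on the length used. Per kb of the longest coding transcript, the juvenile levels ran from 18.6 CPM per kb for *Cct4* to 70.7 CPM per kb for *Cct2*, a 3.81-fold range, and the *c-Myc* levels from 56.8 to 155 CPM per kb for the same genes, a 2.73-fold range. Per kb of merged exons, which are far longer than the transcript for *Cct3* (6370 against 1977 bases) and *Cct7* (6778 against 2441 bases), the juvenile range was 5.12-fold and the lowest was *Cct3* at 10.6 CPM per kb. *Cct2* was highest and *Cct5* next in all 4 groups by either length, and the order of the other 6 genes changed with the length. Neighbours in it, such as *Tcp1* (37.1 ± 6.13 CPM per kb of transcript), *Cct3* (34.1 ± 4.87) and *Cct7* (32.7 ± 1.89) in the juvenile libraries, did not differ beyond their spread.

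**Figure D3:**
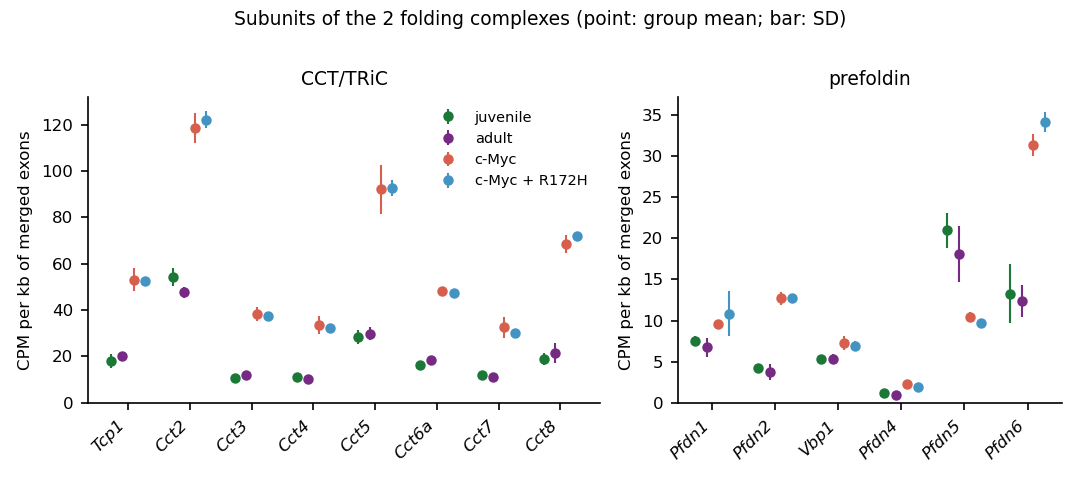
Level of the 8 CCT/TRiC and the 6 prefoldin subunit genes in CPM per kb of merged exons (points: group mean; bars: SD; 4 libraries in the juvenile and adult groups, 2 in the induced groups). All CCT/TRiC subunits stand higher in the induced groups, whereas *Pfdn5*, the most abundant prefoldin gene of the juvenile libraries at 20.96 CPM per kb, stands lower. The order of the CCT/TRiC subunits below *Cct2* and *Cct5* differs per kb of transcript.

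Prefoldin subunit genes did not move together, and *Pfdn5* alone had a negative log2FC under each of the 4 scalings (with library totals 5 were called higher and 0 lower). *Pfdn2* (log2FC 1.58), *Pfdn6* (1.22) and *Pfdn4* (0.94) were called higher, *Vbp1* (0.43, adjusted p = 0.0654) and *Pfdn1* (0.34, adjusted p = 0.221) were not called, and *Pfdn5* was called lower. *Pfdn2*, a subunit of the beta type, rose from 9.04, 8.36, 8.07 and 6.83 CPM to 23.6 and 25.6 CPM (SE 0.17, adjusted p = 7.75e-06). *Pfdn5*, an alpha-type subunit also known as MM-1 for its binding to MYC, fell from 29.3, 32.0, 30.5 and 25.1 CPM to 15.1 and 13.9 CPM (log2FC -1.03, SE 0.16, adjusted p = 0.000161). The groups of both genes were apart. *Pfdn5* shares 165 bases of its exons with *Myg1* on the same strand, which is 11.8% of their length. The call of *Pfdn4* rested on 22 to 34 counts per juvenile library and was lost in 9 of 18 alternatives, among them those without juvenile replicate 1 or 2 and without each induced library, with a highest adjusted p of 0.184.

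None of the 3 BAG and small heat shock protein genes tested was called higher, although all 3 were with library totals. *Bag1*, a nucleotide exchange factor of HSP70, was at 72.1, 61.2, 69.8 and 58.0 CPM in the juvenile libraries and at 53.4 and 46.8 CPM in the *c-Myc* libraries (log2FC -0.40, SE 0.12, adjusted p = 0.0145). This direction depended on the scaling, since with library totals *Bag1* was higher in *c-Myc* libraries (log2FC 0.43), and the call was lost without *c-Myc* replicate 2 (adjusted p = 0.159). *Bag3*, which carries HSP70 clients to autophagy, was at 54.6, 66.6, 61.8 and 48.1 CPM in the juvenile and at 58.6 and 59.8 CPM in the *c-Myc* libraries, within the juvenile range (adjusted p = 0.934, or 0.000773 with library totals, where it was higher). *Hspb1*, a small heat shock protein, was at 1.64, 2.68, 1.53 and 1.99 CPM in the juvenile and at 2.10 and 3.63 CPM in the *c-Myc* libraries, with overlap between the groups and 11 to 26 counts per juvenile library (log2FC 0.51, SE 0.44, adjusted p = 0.346), and *Hspb8* had 1 and 4 counts in the *c-Myc* libraries. The directions of *Dnajb1*, *Hspa1a*, *Hspa1b* and *Pfdn5* were negative with library totals too, at -0.59, -0.32, -0.21 and -0.20, of which *Dnajb1* was called (adjusted p = 0.0134).

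Chaperone genes outside the list were compared in the same fit. Of 65 other cytosolic, nuclear and mitochondrial chaperone and cochaperone genes tested, 25 were called higher and 10 lower, median log2FC 0.45, and with library totals 49 higher and 1 lower. The largest rises were those of *Ruvbl2* (2.98, SE 0.13, adjusted p = 1.17e-08) and *Ruvbl1* (2.47, SE 0.15, adjusted p = 8.87e-08), AAA+ ATPases that work with HSP90 in complex assembly, and of the ribosome-bound J-protein gene *Dnajc2* (2.26, SE 0.23, adjusted p = 3.92e-06). The largest falls were those of *Dnaja4* (-3.30, adjusted p = 0.000121), *Hspb6* (-2.30, adjusted p = 0.0374) and *Hspa12b* (-1.76, adjusted p = 0.0361), all under 1 CPM in both *c-Myc* libraries. With library totals *Hspb6* (adjusted p = 0.146) and *Hspa12b* (adjusted p = 0.228) were not called.

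In the endoplasmic reticulum, where secreted proteins such as collagen fold, the direction was mixed and depended on the scaling. Of 23 ER chaperone genes, 4 were called higher and 11 lower, median log2FC -0.24, against 15 higher and 7 lower with library totals, median 0.60. Their summed level was 8246 to 10680 CPM in the juvenile and 5124 and 5126 CPM in the *c-Myc* libraries. *Sdf2l1*, a BiP partner, rose (2.41, SE 0.41, adjusted p = 0.00028), as did *Canx* (0.79, SE 0.10, adjusted p = 3.8e-05) and *Hyou1* (0.53, SE 0.15, adjusted p = 0.00874). *Fkbp7* (-2.22, SE 0.17, adjusted p = 5.18e-07), *Fkbp14* (-1.93, SE 0.13, adjusted p = 1.17e-07) and *Fkbp9* (-1.73, SE 0.08, adjusted p = 1.87e-08), prolyl isomerases of the ER, fell most, and all 6 of these genes kept their direction and call with library totals. The 10 osteoblast markers, among them the collagen genes, were all called lower (8 of 10 with library totals). Markers of other cells of the metaphysis were lower too. All 10 growth plate chondrocyte markers were called lower with either scaling, median log2FC -5.71, and of 5 marrow stroma markers 4 were called lower, median -1.24 (with library totals 1 was called lower, median -0.40). The marrow stroma markers summed to 269 to 360 CPM in the juvenile and to 79.5 and 154 CPM in the *c-Myc* libraries. The part of these cells in the differences of the members was not tested.

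**Figure D4:**
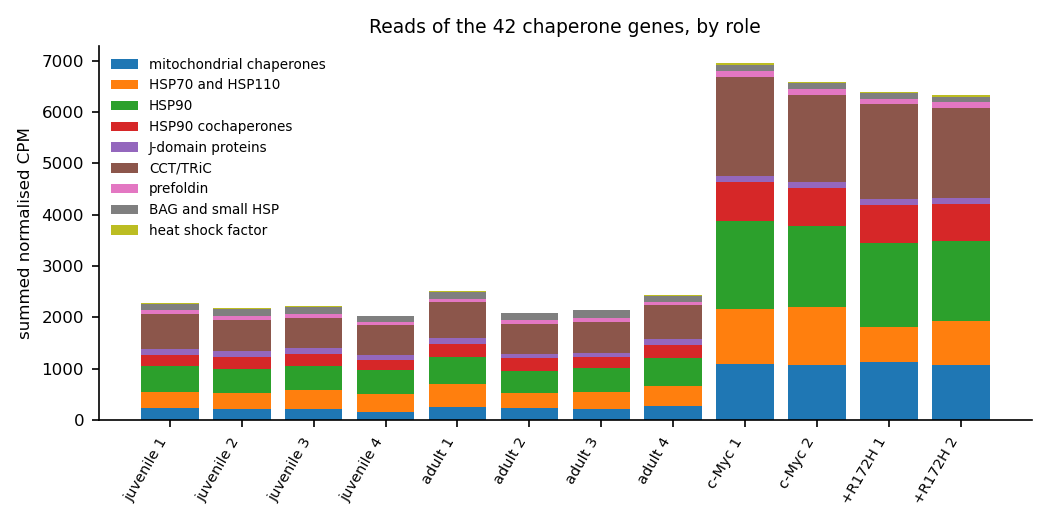
Summed normalised CPM of the 42 members in each of the 12 libraries, stacked by role (bars start at 0). The juvenile and adult libraries lie between 2028 and 2506 CPM and the induced libraries between 6337 and 6949 CPM.

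The make-up of the summed reads also differed. The 6 mitochondrial genes took 9.46 ± 0.92% (SD, n = 4) of the members' reads in the juvenile libraries and 16.1 ± 0.374% (SD, n = 2) in the *c-Myc* libraries, and *Hspd1* alone took 1.78 ± 0.253% and 6.79 ± 0.337%. The share of the 8 CCT/TRiC genes was 28.4 ± 1.43% and 26.8 ± 1.33%, a difference within the spread. The share of *Dnajb1* was 2.86 ± 0.128% in the juvenile and 0.352 ± 0.0398% in the *c-Myc* libraries. These shares do not depend on the scaling of the libraries.

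The next comparison asks whether the *Trp53* mutation changes these genes on top of *c-Myc*. Of the 41 members tested, edgeR called 0 higher and 0 lower, with 1 member at an unadjusted p below 0.05 (2.44%, against 4.68% of all genes). Of all 12588 genes, edgeR called 0.00794% higher and 0.461% lower. DESeq2 called 0 members higher and 1 lower, against 8 higher and 200 lower of all genes. The log2FC values of the members ran from -0.78 to 0.39 with a median of -0.01, 36 of 41 lay within 0.25 of 0, and their standard errors were between 0.09 and 0.51. *Hspd1* was at 456 and 464 CPM in the *c-Myc* and at 469 and 445 CPM in the *c-Myc* + *R172H* libraries, and *Dnajb1* was at 22.5 and 25.1 CPM and at 22.3 and 24.4 CPM. For both genes the groups overlapped. *Hspe1* was at 37.9 and 34.6 CPM and at 36.3 and 31.1 CPM, *Hsph1* at 88.7 and 101 CPM and at 82.8 and 86.9 CPM, and *Fkbp5* at 40.1 and 40.0 CPM and at 41.6 and 40.1 CPM. The groups overlapped for *Hspe1*, and they were apart for *Hsph1* and *Fkbp5* by less than the difference between the libraries of one group. The missing calls do not show that the levels are equal, and the precision was lowest for *Hspa1b*.

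The gene at an unadjusted p below 0.05 was *Hspa8*. It was at 734 and 766 CPM in the *c-Myc* libraries and at 340 and 517 CPM in the *c-Myc* + *R172H* libraries, so the groups were apart, with a wider spread within the *c-Myc* + *R172H* group. The share of *Hspa8* in the members' reads, which no scaling touches, was 11.1 ± 0.747% and 6.74 ± 2.01% (SD, n = 2 each). Of its transcript windows, 65.5% also occur in other genes. Its log2FC was -0.78 (SE 0.17, adjusted p = 0.0876). The adjusted p ranged from 1.89e-07 to 0.706 over 18 alternatives, and 4 of them called it: DESeq2 (adjusted p = 0.0011), no filter on low counts, the replicate block (adjusted p = 0.0257), and the fit without *c-Myc* + *R172H* replicate 2 (log2FC -1.15, adjusted p = 0.0186). *Hspa4* was at 243 CPM in both *c-Myc* libraries and at 254 and 233 CPM in the *c-Myc* + *R172H* libraries.

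Against the juvenile libraries, which the *c-Myc* comparison also uses, the *c-Myc* + *R172H* libraries had 31 members called higher and 5 lower of 41 tested, compared with 30.4% and 26.3% of all genes. With library totals, 37 were called higher and 0 lower, against 7668 higher and 1169 lower of all 12588 genes, whose median was then 1.12. The 5 lower members were *Hspa1a* (log2FC -1.47), *Dnajb1* (-1.41), *Hspa1b* (-1.32), *Pfdn5* (-1.10) and *Bag1* (-0.48), of which *Bag1* was higher with library totals (0.56). *Hspd1* (3.55, SE 0.13), *Hspe1* (2.91, SE 0.26) and *Ppid* (2.85, SE 0.22) had the largest rises, next to 3.53, 2.99 and 2.80 in the *c-Myc* libraries. *Hspa8* was 1.88-fold higher than in the juvenile libraries (log2FC 0.91, SE 0.14, adjusted p = 0.000155). Without *c-Myc* + *R172H* replicate 1, whose *Hspa1a* level was 2.43 CPM against 5.61 CPM in replicate 2, the number of lower members fell from 5 to 3, with *Hspa1a* at an adjusted p of 0.0905 and *Hspa1b* at 0.238.

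The age comparison asks how the genes differ between juvenile and adult osteoblasts of the reporter mice, with fold changes given as juvenile over adult. Of 42 members tested, edgeR called 0 higher and 2 lower. At an unadjusted p below 0.05 there were 8 members, which is 19.0% of the members against 19.7% of all genes, a share near the background. Of these 8 members, 1 was *Hspb8*, which passed the filter on low counts through the adult libraries alone and is not read. The others had a negative log2FC. DESeq2 called 0 members higher and 5 lower, 1 of them *Hspb8*, against 372 higher and 628 lower of all genes. Of all 11345 genes tested, edgeR called 1.89% higher and 3.23% lower (214 and 367 genes). When scaled by library totals these were 53 and 793 genes, and the all-gene median was -0.24. The median log2FC of the members was -0.07. The summed level of the 42 genes was 2175 ± 107 CPM (SD, n = 4) in the juvenile and 2293 ± 205 CPM (SD, n = 4) in the adult libraries, and the groups overlapped.

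**Figure D5:**
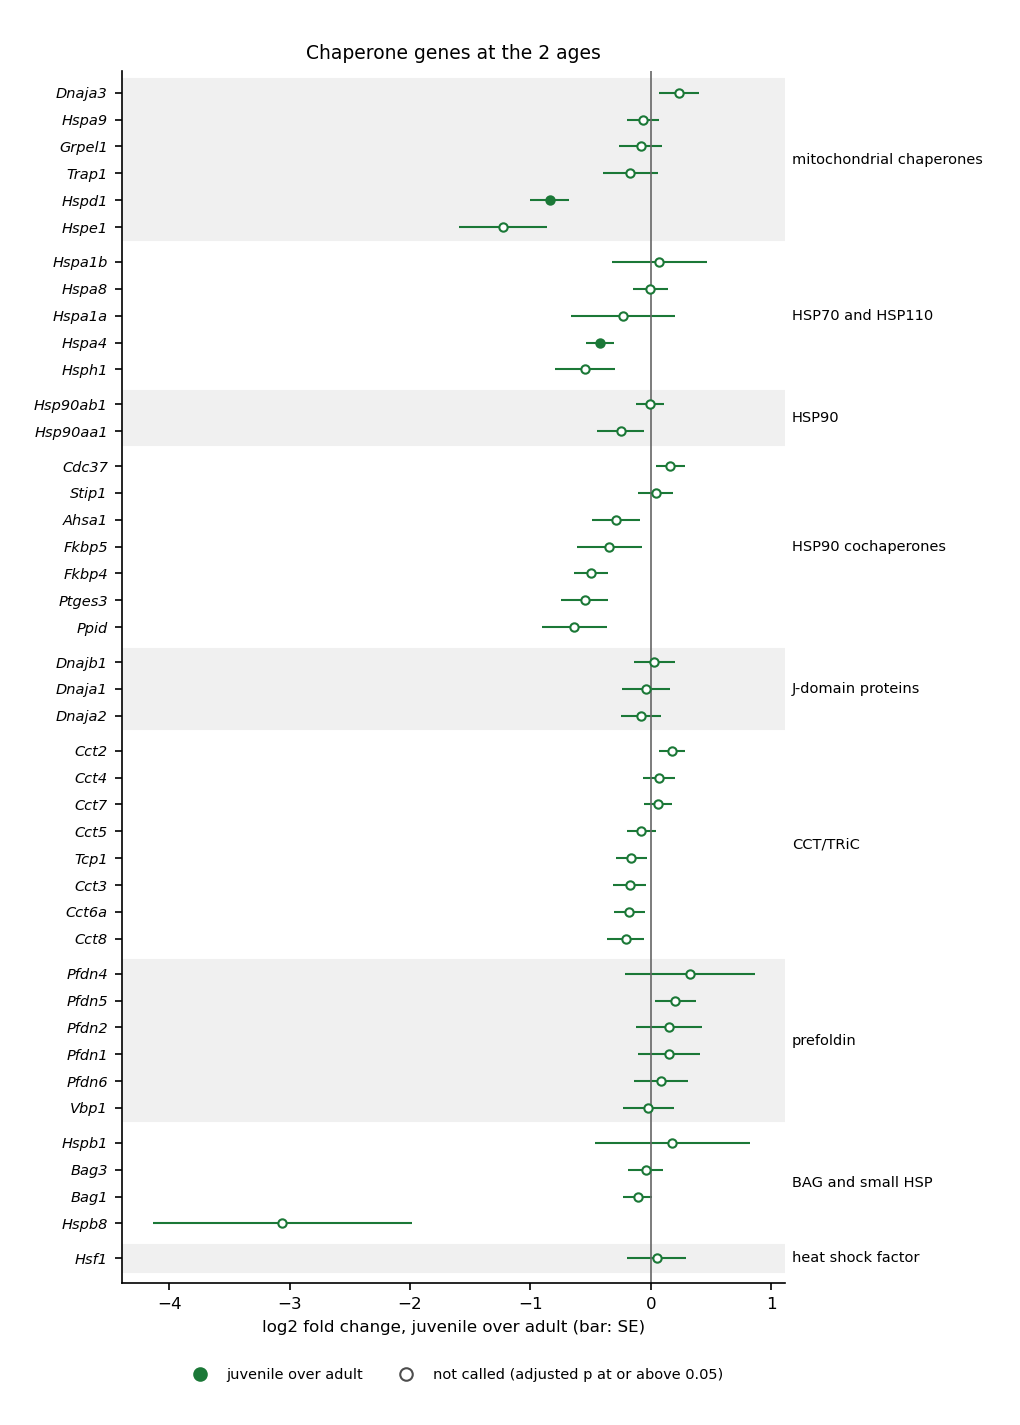
Log2 fold change, juvenile over adult, of the 42 members by role (points: estimate; bars: SE; filled: called at an adjusted p below 0.05; open: not called). Most members lie within 0.25 of 0, *Hspd1* and *Hspa4* are called lower, and the estimate of *Hspb8* is not read, since the gene passed the filter through the adult libraries alone.

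*Hspd1* was the clearest of these genes. It was at 44.9, 42.8, 39.2 and 29.1 CPM in the juvenile libraries and at 85.4, 60.4, 55.0 and 76.9 CPM in the adult libraries, so the groups did not overlap. Its log2FC was -0.84 (SE 0.16, adjusted p = 0.00759), and it was called lower in all 17 alternatives, with an adjusted p of at most 0.0329. *Hspe1*, its partner, was at 6.49, 2.48, 5.29 and 3.603 CPM in the juvenile and at 11.2, 9.93, 4.92 and 15.5 CPM in the adult libraries, with adult replicate 3 inside the juvenile range. With a log2FC of -1.23 (SE 0.37, adjusted p = 0.0631) it was not called, and it was called in 5 of 17 alternatives, among them the fit without adult replicate 3 (adjusted p = 0.027).

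*Hspa4* was at 68.5, 63.5, 65.1 and 70.2 CPM in the juvenile libraries and at 94.8, 78.0, 86.9 and 97.2 CPM in the adult libraries. The groups were apart, the log2FC was -0.43 (SE 0.12, adjusted p = 0.0416), and the call was kept in only 1 of the 8 fits that left out a library, that without adult replicate 2 (adjusted p between 0.0642 and 0.132 in the other 7). *Fkbp4* was not called (log2FC -0.50, adjusted p = 0.055), nor were *Ptges3*, *Ppid* and *Hsph1*, whose adjusted p was between 0.106 and 0.23. *Hspb8*, a small heat shock protein, had 7, 0, 0 and 0 counts in the juvenile libraries and 12, 15, 20 and 9 counts in the adult libraries. As it passed the filter only through the group where it is high, no fold or test is given for it.

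The summed level of cartilage genes also differed with age, although most of these genes were not called. Of 10 growth plate chondrocyte markers, 9 had a negative log2FC and 1, *Col2a1*, was called lower (not with library totals, adjusted p = 0.0678), and their summed level was 8675 to 25730 CPM in the juvenile and 33990 to 124000 CPM in the adult libraries. The adult libraries with the highest sums, replicates 1 and 4 at 124000 and 73810 CPM, were also those with the highest *Hspd1* levels, and juvenile replicate 4 had the lowest of both. The other libraries differed in order. Adult replicate 3 had a higher sum than replicate 2 (54790 against 33990 CPM) but less *Hspd1* (55.0 against 60.4 CPM). Juvenile replicate 1 had the most *Hspd1* of its group but a lower sum (20840 CPM) than replicates 2 and 3 (25730 and 24500 CPM). The part of these cells in the *Hspd1* difference was not tested. In the *c-Myc* and *c-Myc* + *R172H* libraries, where *Hspd1* was highest, the same markers summed to between 158.5 and 545 CPM, below every control library.

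The stress-inducible genes varied between adult libraries. *Hspa1a* was at 21.7, 4.52, 7.12 and 18.6 CPM in adult replicates 1 to 4, *Hspa1b* at 15.3, 5.31, 5.05 and 13.0 CPM, and *Dnajb1* at 79.1, 41.0, 51.6 and 71.1 CPM. The immediate early list summed to 4724, 1609, 2449 and 3781 CPM in these libraries, so replicates 1 and 4 were high and replicates 2 and 3 low in all of these measures. This split was not particular to stress genes. The *Col1a1* share of counts was 21.36% and 23.19% in replicates 1 and 4, and 34.15% and 31.55% in replicates 2 and 3. In their counts these 2 pairs were also the most alike (chi-square over degrees of freedom 22 and 16, against 42 to 147 for the other adult pairs). The juvenile range of *Dnajb1*, 54.9 to 67.1 CPM, lay inside the adult range. None of the CCT/TRiC, prefoldin, HSP90 or J-domain genes was called between the ages, and the log2FC values of the 8 CCT/TRiC genes ran from -0.21 to 0.18. With library totals all 8 of these were negative, with a median of -0.35 against -0.24 for all genes.

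Among the ER chaperone genes, 1 of 23 was called higher and 6 lower in juvenile libraries, median log2FC -0.36, against 0 higher and 15 lower with library totals, and among the 65 other chaperone genes tested 1 was called higher and 0 lower.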

How the data were processed

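Libraries were prepared with the NEBNext Ultra II Directional kit. Per the submitters' processing notes the authors used bcl2fastq 2.20, cutadapt 4.6, STAR 2.7.11a on mm10 and HTSeq 2.0.5. The authors deposited raw counts of uniquely mapped reads per gene, not normalised, and the methods name different GENCODE releases for mapping and for counting. Groups and replicate numbers were taken from the library titles, and all 12 libraries were used.

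edgeR 4.0.16 (R 4.3.3) was run with TMM factors, its default filter on low counts, a robust quasi-likelihood fit and F test, and Benjamini-Hochberg adjustment over all genes tested. The fit of the *c-Myc* comparisons held 8 libraries (juvenile, *c-Myc*, *c-Myc* + *R172H*), and that of the age comparison held the 8 reporter libraries (juvenile, adult). The SE, an approximation, is the absolute log2FC over the root of F. The code was tested on simulated data. CPM were scaled over all 12 libraries, so their ratios can depart slightly from the fitted folds. Floors cover counting error only, since reads carried no molecular identifiers.

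The members, role groups, other gene lists, tests and rules for naming were chosen with earlier results of these data known. Per-library values were given for members called in the age or *R172H* comparison, for the highest and lowest member of each role group under *c-Myc*, and for *Hspa1a*, *Hspa1b*, *Dnajb1*, *Hspd1*, *Hspe1*, *Hspa8*, *Hsp90ab1*, *Fkbp5* and *Hsf1*. Outside the members, the 3 called genes with the largest rise and the 3 with the largest fall in the other chaperone and ER lists were named, together with marker genes. *Hspa4* and *Bag3* (*c-Myc* comparisons) and *Hspe1*, *Hspb8* and the stress genes (age comparison) were added after their values were seen. Alternatives were RLE and upper-quartile factors, library totals, removal of *Col1a1*, *Col1a2* and *Gm26917*, no filter or at least 10 counts in every library, DESeq2 1.42.0, all 12 libraries or only 2 groups in the fit, the replicate number as a block, and omission of each library. No pair of libraries within a group was alike to within sampling noise (chi-square over degrees of freedom 5.75 to 147). Coordinates, merged exon and transcript lengths and shared 86-base windows came from GENCODE M21 (GRCm38). Levels per kb of the longest coding transcript were added after the data had been seen.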

Additional observations from a re-analysis of the deposited data

Results flagged for a closer look

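Within the groups of 4 libraries, a library was singled out where its gap to the nearest other library, divided by the range of the group, passed Dixon's critical value for 4 samples. This held for 6 of 84 gene and group pairs, and chance gives about 1 in 20. Among juvenile libraries, replicate 4 was low for *Dnaja3* at 21.5 CPM, and replicate 1 was high for *Cct5* at 91.1 CPM and for *Hspb8* at 0.639 CPM, where the other 3 libraries had 0 counts. Among adult libraries, replicate 4 was high for *Hspa9* at 117 CPM, and replicate 1 was low for *Dnaja3* at 19.0 CPM and high for *Fkbp5* at 19.6 CPM. None of these 5 genes was called between the ages.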

How the results depend on the processing

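Of the 36 members called against the juvenile libraries, 30 (*c-Myc*) and 29 (*c-Myc* + *R172H*) were called in every alternative, and 35 kept their sign in each comparison. The 29 count calls in either direction and include *Bag1*, which was called lower in the main fit but higher with library totals. With library totals, lower calls went from 4 to 1 (*c-Myc*) and from 5 to 0 (*c-Myc* + *R172H* against juvenile), and from 2 to 5 by age. The members' median moved to 2.36, to 2.57 and, by age, to -0.31, and between the induced groups to 0.20, while *Bag1* reversed to 0.43 (*c-Myc*) and 0.56 (*c-Myc* + *R172H*). Between the induced groups 1 member was called lower with no filter, DESeq2 or the replicate block, and 0 to 1 without each replicate. By age, 4 were called lower with no filter, 5 with DESeq2 (4 without *Hspb8*), 5 with all 12 libraries and 1 with the replicate block, and between 1 (for example without juvenile replicate 2) and 3 (without adult replicate 3) without each replicate. Without each replicate, the *c-Myc* median ran from 1.48 to 1.63, and lower calls of *c-Myc* + *R172H* against juvenile from 3 to 5. Libraries with the same number in their titles correlated in their deviations by -0.08 to 0.17, so these numbers were not taken as pairs. The library names number the adult libraries differently, and pairing by those names was not tested. With the replicate block the members called were 33 higher and 4 lower (*c-Myc*) and 33 and 5 (*c-Myc* + *R172H*, median 1.45), and *Hspa4* was not called by age (adjusted p = 0.0668).

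Counts over all genes moved by over 1.5 times between the induced groups, from 1 higher and 58 lower to 8 and 200 with DESeq2, 14 and 208 with no filter, 189 and 440 with 2 groups, 30 and 296 with the replicate block, 1 and 11 with library totals and 0 and 22 with all 12 libraries, and by age to 372 and 628 with DESeq2 and 461 and 633 with all 12 libraries. With no filter the prior degrees of freedom of the shared fit were infinite. The cause of these changes was not tested. Depth limited *Hspb8*, *Hspb1* and *Pfdn4*, with at most 34 counts in any juvenile library. *Hspe1* was also shallow there, with 71, 24, 38 and 29 counts in juvenile replicates 1 to 4.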
